A study of Saccharomyces cerevisiae with 167 samples.

Results

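Histone H4 occupancy in stationary phase was set directly against H4 occupancy in log phase on 3 dual-colour DNA microarrays, out of 167 arrays in the whole series. They are the arrays titled as total H4 precipitates of stationary phase cells against those of log phase cells, sets 1 to 3, and all probes on them were used. The stationary phase precipitate carried Cy5 and the log phase precipitate carried Cy3 on each array. No array had the dyes swapped, so dye and growth state cannot be told apart on them. No input DNA was on these arrays. A difference in DNA copy number or in non-specific precipitation between the states would enter the ratio, and neither was tested.

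The cells were Saccharomyces cerevisiae whose H4 was precipitated through a Myc tag with an anti-Myc antibody, after cross-linking with 1% formaldehyde and shearing of the chromatin by sonication to below 1 kb. The labels give neither the strain nor the medium nor the time spent in stationary phase. Companion arrays came in 5 sets of 3 and supplied 4 further readings, 1 of which combines 2 of the sets. Acetylated H4 and mRNA were compared directly between stationary and log phase cells. The H4 precipitates of stationary phase cells and of log phase cells were each also hybridised against genomic DNA, and subtracting the log phase value gives a second route to the same H4 difference, called the genomic DNA route here. H4 of cells at 39 °C against cells at 30 °C served to ask which changes differed from those of heat shock. Nothing in the labels says that the sets were separate cultures, so p-values measure the spread between these arrays, which may be technical. The description of the acetylated H4 arrays names the anti-Myc antibody as well, and what it precipitated there was not tested.

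H4 is one of the core histones that wrap DNA into nucleosomes, and loss of nucleosomes from promoters and heavily transcribed genes is a common companion of active transcription in yeast. Cells enter stationary phase when nutrients run out. They then shut down ribosome synthesis, which in growing cells is the main task of RNA polymerase I at the ribosomal DNA (rDNA) and of RNA polymerase II at the ribosomal protein genes. The rDNA lies as a tandem array on the right arm of chromosome XII, and in growing cells its transcribed copies are largely free of nucleosomes.

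Each value is a log2 ratio of stationary over log phase after the median of its array was set to 0, so a rise or fall is relative to the typical probe and the total amount of H4 cannot be read from it. Of 13027 probes tested, 386 passed limma's test against 0 at an adjusted p below 0.05, which is 2.96%. H4 was higher in stationary phase at 303 of them (2.33%) and lower at 83 (0.637%). Among intergenic probes, 1.88% were higher and 0.258% lower. The change was at least 2-fold at 64 of the higher and 8 of the lower probes. Between 2 arrays the values correlated across all probes with r between 0.45 and 0.49, and the median standard error of a probe was 0.10. With 3 arrays the number of calls rested on each of them. Without the first array 0 probes passed, with 2487 at an unadjusted p below 0.05. Without the second array 22 passed, and without the third 331 passed.

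Of the 303 higher probes, 17 were rDNA probes, 96 were open reading frame (ORF) or intergenic probes of chromosome XII (31.7%), and 64 lay in ORFs, promoters or introns of ribosomal protein genes (21.1%), 13 of which are on chromosome XII as well. The remaining 139 (45.9%) belonged to none of these. Chromosome XII held 40.2% of the rises among ORF and intergenic probes of the nuclear chromosomes and 8.61% of those probes. The ribosomal protein genes have 137 ORF, 124 promoter and 11 intron probes on the arrays.

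The rDNA rose at every probe. All 17 rDNA probes passed the test, each higher in stationary phase, with means between 0.92 and 2.91 and a median of 2.22. RDN37-1C, a probe of the precursor of the large ribosomal RNAs, had log2 ratios of 3.04, 2.49 and 3.22 on the 3 arrays, a mean of 2.91 ± 0.38 (SD, n = 3), or 7.54-fold higher H4 in stationary phase, with an adjusted p of 0.0070. The intergenic probe iRDN37-1 had 2.65, 2.39 and 3.20. Both were high on every array, and the lowest single value among the 17 probes on any array was 0.78, so no rDNA value lay near 0. The 3 probes of the 18S gene had means of 2.65, 2.18 and 2.16, and the 4 probes of the 25S gene had means of 2.64, 2.07, 1.93 and 1.82. The 5.8S probe RDN58-1 had a mean of 2.22, and the intergenic probe iRDN5-1 had 2.72, 2.31 and 3.22.

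The 5S gene is transcribed by RNA polymerase III, in contrast to the rest of the repeat. Its probe RDN5-1 had log2 ratios of 1.12, 1.76 and 2.11, a mean of 1.67 ± 0.50 (SD, n = 3) and an adjusted p of 0.028. The intergenic probes iRDN5-2, with a mean of 1.19, and iRDN5-3, with 0.78, 1.08 and 0.91, were the lowest of the 17. The other 15 probes lay between 1.67 and 2.91. Copies of the rDNA repeat carry nearly the same sequence, so these 15 probes may report the repeats as a whole and not single copies. Against genomic DNA in log phase, iRDN5-2 and iRDN5-3 also stood apart, with a median of -1.23 against -2.88 at the other 15. Whether these probes report the repeats as a whole was not tested. Without the first array 0 of the 17 passed, without the second 13 and without the third 17, while all 17 were higher at an unadjusted p below 0.05 each time and the median stayed between 2.05 and 2.47.

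Against genomic DNA, the rDNA probes were low in both states but less so in stationary phase. RDN37-1C had log2 ratios to genomic DNA of -1.35, -1.07 and 0.37 in stationary phase, against -3.06, -3.54 and -2.82 in log phase. The groups did not overlap, and the difference was 2.46 (unadjusted p = 0.00086, adjusted p = 0.18). Over the 17 probes the median level against genomic DNA was -1.06 in stationary phase and -2.87 in log phase. On this route 0 probes of all 13027 passed limma's test (0%), with 1469 at an unadjusted p below 0.05, so the rDNA difference has a size on this route but no call. Whether the direct arrays and the genomic DNA arrays used the same precipitates is not stated.

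**Figure D1:**
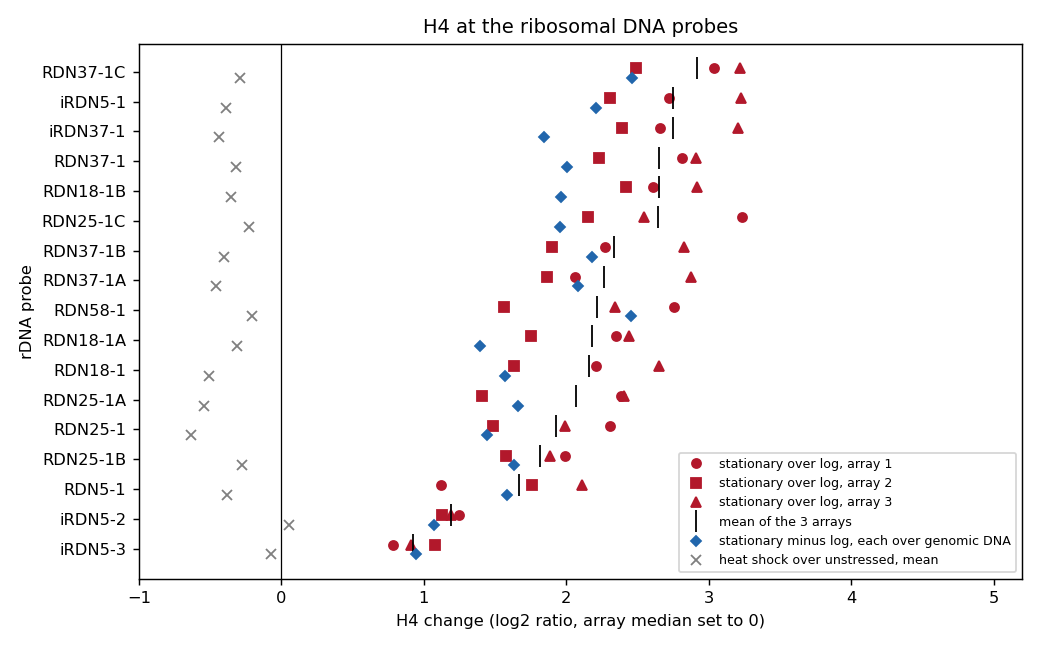
Log2 H4 ratio at the 17 rDNA probes (rows). Red symbols are the 3 direct arrays of stationary over log phase, black ticks their means, blue diamonds the difference of stationary and log phase measured against genomic DNA, and grey crosses the mean of the 3 heat shock over unstressed arrays; all direct values lie at or above 0.78 and the blue diamonds between 0.95 and 2.46, while the crosses sit near or below 0.

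The rDNA rise differed from what heat shock gave. H4 at the 17 probes had a median of -0.35 in heat-shocked over unstressed cells, and 0 of the 17 passed there in either direction (21.6% of all probes did). The difference between the stationary phase change and the heat shock change passed at 17 of 17, all above heat shock, where 4.39% of all probes were called above and 1.42% below. Over all probes the 757 calls of this difference (5.81%) came to 113 calls without heat shock array 1, 162 without array 2 and 428 without array 3. The difference reached 3.21 at RDN37-1C (adjusted p = 0.0025), 3.19 at iRDN37-1 and 3.14 at iRDN5-1. Acetylated H4 was also higher at 16 of the 17 (8.51% of all probes were), with a median of 2.31. The exception was RDN58-1, with acetylated H4 values of -1.14, -2.27 and 1.79, which point both ways.

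H4 on chromosome XII outside the rDNA was higher as well. Its 1040 ORF and intergenic probes had medians of 0.17, 0.17 and 0.18 on the 3 arrays, and the other 15 nuclear chromosomes had medians of probe means between -0.08 and 0.01. On chromosome XII 96 probes rose and 0 fell, against 143 and 74 of the 11040 probes on the other chromosomes. Without the first array 0 of them passed, without the second 6 and without the third 72, with medians between 0.160 and 0.172. Taking out the ribosomal protein genes left 83 of 1005 probes higher, 0 lower, and a median of 0.17. On the genomic DNA route the chromosome XII median was 0.15, against -0.01 for the other chromosomes. Its mRNA did not move as a whole, with a median of 0.01. After heat shock its H4 median was 0.01, and 141 chromosome XII probes were called above heat shock in the test of the difference (13.6%, against 3.22% on the other chromosomes).

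The rise on chromosome XII was graded along the chromosome. Counting coding genes outward from the rDNA, the first 15 genes to its right, toward the right end of the chromosome, had a median of 1.00 over 21 probes with 17 calls. Genes 16 to 50 on that side had 0.46 over 71 probes with 21 calls, and genes 51 to 100 had 0.24. Beyond gene 200 the median was 0.11. To the left, the first 15 genes had a median of 0.57 over 27 probes with 13 calls, genes 16 to 50 had 0.21 and genes 51 to 100 had 0.14. Beyond gene 150 and up to gene 200 on the left it was -0.01. The left arm as a whole had a median of 0.00 over 133 probes, against 0.19 over 907 probes of the right arm. More than 25 genes away from the rDNA on either side, 902 probes still had a median of 0.15, with 49 rises and 0 falls.

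**Figure D2:**
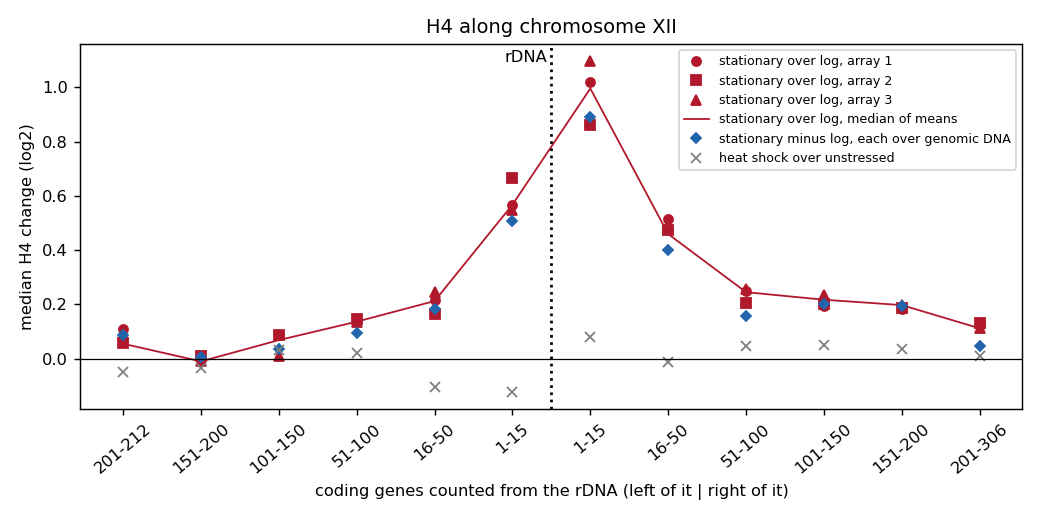
Median log2 H4 change of chromosome XII probes (vertical axis) by the number of coding genes between the probe and the rDNA, left of it and right of it (horizontal axis). Red symbols are the 3 direct arrays, the red line the median of probe means, blue diamonds the genomic DNA route and grey crosses heat shock over unstressed; the direct medians peak at 0.57 and 1.00 in the bins beside the rDNA and are -0.01 in the bin that ends at gene 200 on its left.

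Of the 10 ORFs with the largest rises, 9 were on chromosome XII, and most of them lay beside the rDNA. RNH203, a subunit of ribonuclease H2, had log2 ratios of 1.50, 1.49 and 1.44, a spread of 0.037 (SD, n = 3) and an adjusted p of 0.0070. The ASP3 genes, which encode the cell wall asparaginase and lie near it, rose at each of 4 copies, with means of 1.07 at ASP3-1, 1.29 at ASP3-2, 1.41 at ASP3-3 and 1.40 at ASP3-4. The ASP3 copies are nearly identical, so their probes may share signal and are not separate observations. YLR162W, an uncharacterised gene, had the largest rise of any ORF, with 1.95, 2.66 and 2.40 and a mean of 2.34. Each of these was high on every array and above 0 by the genomic DNA route, where RNH203 had 1.52, ASP3-4 had 1.19 and YLR162W had 1.75.

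To the left of the rDNA, the ORF of ACS2, an acetyl-CoA synthetase, had 0.87, 0.66 and 0.76, and that of STM1, a ribosome-associated protein, had a mean of 0.98. Large rises also lay further away. UPS2, a mitochondrial protein of phospholipid metabolism beside RPS31, had a mean of 1.23, and CCW12, a cell wall mannoprotein, had 1.19. RIX7, an ATPase of large ribosomal subunit assembly, lies on the left arm, 183 coding genes from the rDNA, and had 1.57, 1.44 and 1.86. The only ORF of the 10 on another chromosome was YAL069W, at an end of chromosome I, with 1.16, 0.92 and 1.72 directly and 0.33 by the genomic DNA route. Among the 10 intergenic probes with the largest rises, 8 were on chromosome XII, led by the region between RRT15 and MAS1 (mean 1.98) and the one between YLR162W and RRT15 (mean 1.72). The other 2 were the region upstream of YFL051C, with 1.90, 1.19 and 1.47, and the region between PAU10 and YRF1-1, with a mean of 1.20 but a spread of 0.71 to 1.65.

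The ribosomal protein genes had more called rises in their coding regions than any other gene list examined. Of 137 ORFs, 50 rose and 0 fell, where 2.07% of all ORF probes rose and 0.941% fell. Their median was 0.50, against -0.02 over all ORF probes, with medians of 0.56, 0.43 and 0.55 on the 3 arrays. Their mRNA was lower in stationary phase at 128 of the 137 (17.7% of all ORFs), with a median of -2.21. In bulk RNA, fewer cells that transcribe a gene and less RNA per cell cannot be told apart. Large and small subunit genes had nearly the same median H4 change, 0.51 over 76 and 0.50 over 56. Many ribosomal protein genes come in near-identical pairs, whose probes may share signal.

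RPS31, which encodes a small subunit protein fused to ubiquitin, had H4 log2 ratios of 1.25, 0.90 and 1.21, a mean of 1.12 ± 0.19 (SD, n = 3), 2.17-fold higher in stationary phase, with an adjusted p of 0.018. Its mRNA was lower too, by a log2 ratio of -3.0. RPL37A, for a large subunit protein, had H4 values of 0.95, 1.03 and 1.12. RPS9B, for a small subunit protein, had 0.83, 0.89 and 1.24. All 3 were high on each array. RPS29A had a mean of 1.00 but spread over 1.53, 0.58 and 0.90, and it did not pass (adjusted p = 0.056). Without the first or the second array 0 of the 137 passed and without the third 31 did, while between 94 and 96 of the ORFs stayed higher at an unadjusted p below 0.05.

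The rise was not confined to ribosomal protein genes on chromosome XII. The 18 ORFs on that chromosome had a median of 0.73 with 10 rises, and the 119 elsewhere had 0.48 with 40 rises. The same direction was seen in introns, where 11 intron probes of ribosomal protein genes had means between 0.31 and 1.18. Of these 3 rose (RPS9A 1.18, RPL28 1.03 and RPL33A 0.79), which is 27.3%, against 2.33% of all probes. The 10 intron probes of other genes had a median of 0.02 and 0 passed, a count near the shares of all probes.

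Promoters of ribosomal protein genes moved less than their coding regions. Of 124 promoter probes 11 rose and 0 fell, with a median of 0.23, where 1.69% of all promoter probes rose. The region before RPL21A had 0.94, 0.94 and 0.68 (mean 0.85, adjusted p = 0.028). The one before RPL2A had a mean of 0.79, the one before RPS19A had 0.78, and the shared promoter of RPL33B and IRC13 had 0.82.

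Heat shock gave a like change at the ribosomal protein genes. There 100 of the 137 ORFs had higher H4 in heat-shocked than in unstressed cells (11.2% of all ORF probes), with a median of 0.36. In the test of the difference 6 of the 137 were above heat shock, among them RPS31 and RPL37A, and 2 were below, against 3.24% and 1.85% of all ORF probes. In this respect the ribosomal protein ORFs stood near the background, and the rDNA and chromosome XII did not.

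The 87 genes of ribosome biogenesis, which assemble and process ribosomes, had lower mRNA at 49 ORFs, with a median of -0.61 that was smaller in size than the -2.21 of the ribosomal protein genes. Their H4 passed at 0 of 87 ORFs, with a median of 0.00, and 0 of 29 ORFs of RNA polymerases I and III and their factors passed. Both counts are near the shares of all ORF probes, 2.07% higher and 0.941% lower. Over all genes, the 111 ORFs with mRNA at least 4-fold lower had a median H4 change of 0.52 with 44 rises and 0 falls. Of these, 92 were ribosomal protein genes, and the 19 others had a median of 0.35 with 4 rises. Outside the ribosomal protein genes, the 248 ORFs with mRNA at least 2-fold lower had a median of 0.04, with 10 rises and 2 falls.

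The 9 ribosomal protein ORFs whose mRNA did not pass the test had H4 means from -0.74 to -0.11, and 0 of them passed. RPL14B, the largest of these, had 0.25, -1.21 and -1.26, which point both ways. RPS20 had 0.39, 0.54 and -2.10, so its negative mean came from the third array. By the genomic DNA route the 9 had a median of 0.11, with 5 above 0 and 4 below, among them RPL14B with -0.13 and RPS20 with -0.14.

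**Figure D3:**
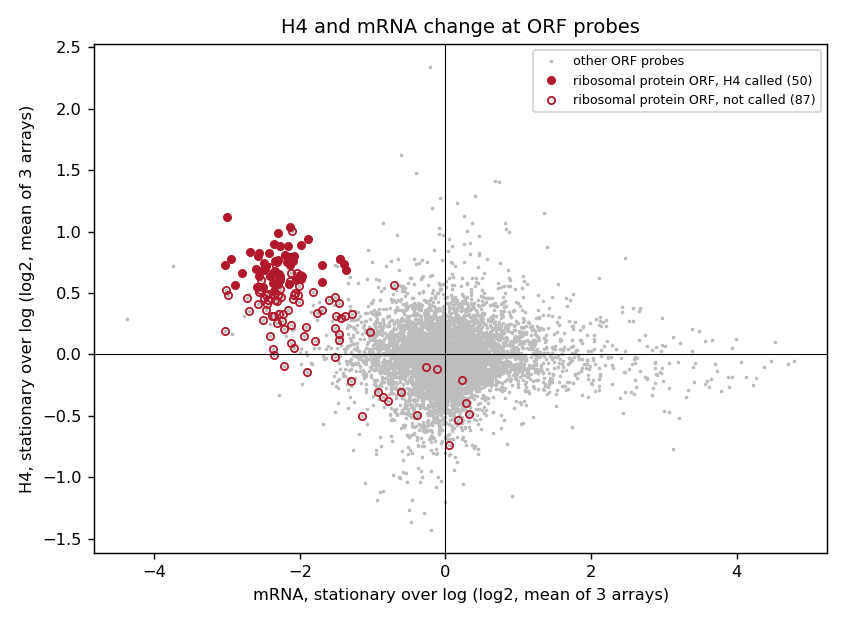
Log2 H4 change (vertical axis, mean of 3 arrays) against log2 mRNA change (horizontal axis, mean of 3 arrays) at the 6269 ORF probes, stationary over log phase. Red circles are the 137 ribosomal protein ORFs, filled at the 50 that passed the H4 test; most sit at mRNA values below -1 and H4 values above 0, while grey points with higher mRNA scatter about an H4 change of 0.

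Of 30 translation factor ORFs 4 rose (13.3%) and 0 fell, against 2.07% and 0.941% of all ORF probes. TEF2, elongation factor 1 alpha, had 1.01, 0.49 and 0.83 (mean 0.78). YEF3, elongation factor 3, had a mean of 0.72, HYP2, translation factor eIF5A, had 0.72, and EFB1, elongation factor 1 beta, had 0.61. ASC1, the ribosome-bound RACK1 protein, had the second largest mRNA fall (-3.74), and its ORF had an H4 mean of 0.72 with an adjusted p of 0.045. CWP1, a cell wall mannoprotein, had the largest mRNA fall (-4.37), and its H4 values of 0.52, 0.12 and 0.21 did not pass.

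Of 11 histone ORFs 3 rose and 0 fell, where 2.07% of all ORF probes rose. Of 7 histone promoters 0 passed, a count near the shares of all promoter probes. The ORF median was 0.38, and the lowest means were 0.08 at HTB1 and -0.09 at HHO1, neither of which passed. HHT1, which encodes histone H3, had 0.91, 0.60 and 0.92 (mean 0.81 ± 0.18, SD, n = 3, adjusted p = 0.031). HHF1, which encodes H4 itself, had 0.85, 0.53 and 0.89, and HTB2, which encodes H2B, had 0.59, 0.61 and 0.62. The 6 of 11 histone ORFs called above heat shock (3.24% of all ORF probes) included HHT1, HHT2, HHF1 and HHF2. HHT1 and HHT2 are paired genes, as are HHF1 and HHF2, and whether the probes of a pair share signal was not tested. The shared promoter of HHT2 and HHF2 had 0.66, 0.18 and 0.44 in stationary phase, a mean of 0.43 that did not pass, against -1.16 after heat shock, and the difference of 1.59 passed (adjusted p = 0.015). The shared promoter of HHF1 and HHT1 had a mean of -0.34 that did not pass, unlike the ORFs on either side of it.

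Promoters of stress genes showed no H4 loss that passed the test in stationary phase. In lists of this size that is near the 0.269% of all promoter probes that fell. Of 34 chaperone promoters 0 passed in either direction, with means between -0.48 and 0.40 and a median of 0.01 (1.69% of all promoter probes rose and 0.269% fell). After heat shock 25 of the 34 had lower H4, against 13.7% of all promoter probes, with a median of -0.94. The difference passed at 23 of 34, each above heat shock, where 5.23% of all promoter probes did. General stress promoters behaved alike, with 0 of 33 passing in stationary phase, a median of -0.04, a heat shock median of -0.57, and 15 called above heat shock. Among 26 promoters of stationary phase marker genes 0 passed, with a median of -0.15. At 20 of the 29 genes of that list mRNA was higher (17.6% of all ORFs).

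HSP12, a small membrane-protecting heat shock protein, had promoter values of -0.05, -0.48 and 0.15 in stationary phase, a mean of -0.13, against -2.07 after heat shock. The difference was 1.95 (adjusted p = 0.0016), and HSP12 mRNA was higher in stationary phase by a log2 ratio of 2.22. The promoter of HSP104, the protein disaggregase, had -0.07 in stationary phase and -2.18 after heat shock, and its mRNA did not pass (-0.16). The promoter of HSP26, a small heat shock protein whose mRNA was higher by 3.90, had -0.49, -0.21 and -0.21, a mean of -0.30 that did not pass. The promoter of CTT1, the cytosolic catalase, had -0.28, -0.28 and -0.25 on the 3 arrays, below 0 on each but not past the test (adjusted p = 0.15).

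Heat shock and stationary phase cells came from different arrays with different noise, so a missed call alone does not set them apart. Probes had a median standard error of 0.10 on the stationary phase arrays and 0.064 on the heat shock arrays. The tests of the difference carry both.

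**Figure D4:**
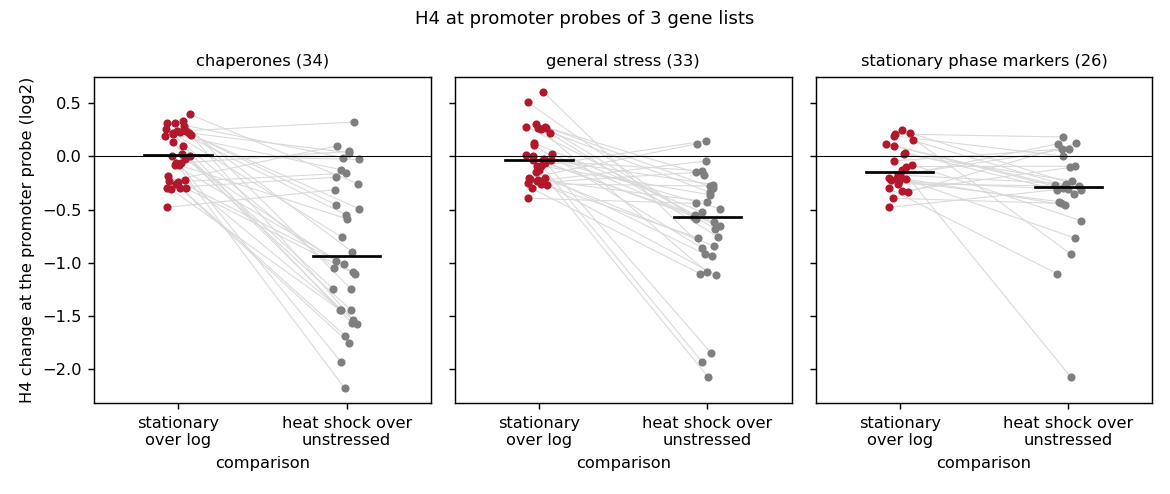
Log2 H4 change at promoter probes of chaperone, general stress and stationary phase marker genes. In each panel red points on the left are stationary over log phase, grey points on the right are heat shock over unstressed (39 °C over 30 °C), lines join the same promoter and bars are medians; the stationary phase medians are 0.01, -0.04 and -0.15 and the heat shock medians -0.94, -0.57 and -0.29.

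Of 42 general stress ORFs 0 rose and 3 fell (7.14%, against 0.941% of all ORF probes), and 10 of the 42 means were above 0. Those that fell were HXK1, a hexokinase, with -0.84, -0.77 and -0.54; MRH1, a plasma membrane protein, with a mean of -0.62; and OM45, a mitochondrial outer membrane protein, with -0.56. Of 35 chaperone ORFs 0 passed, a count near the shares of all ORF probes, with a median of -0.07.

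The genes with the largest mRNA rises had little H4 change. Of the 10 with the largest rises, up to 4.79 on the log2 scale, 6 had a promoter probe, and only that of ATR1, a multidrug efflux pump, passed. It had H4 values of -0.63, -0.40 and -0.68 (mean -0.57, adjusted p = 0.049), and -0.24 by the genomic DNA route. The promoter of OYE3, an NADPH oxidoreductase, had 0.24, -0.28 and 0.07, and that of SPS100, a spore wall protein, had 0.05, -0.22 and -0.07, each on both sides of 0. The ORF of MET2, an enzyme of methionine synthesis with the largest mRNA rise (4.79), had 0.11, -0.33 and 0.06. Over all 105 promoters of genes with mRNA at least 4-fold higher, the median was -0.13, with 1 rise (0.952%) and 3 falls (2.86%), against 1.69% and 0.269% of all promoter probes. By the genomic DNA route these promoters had a median of -0.02, with 47 above 0 and 58 below. The 95 promoters with mRNA at least 4-fold lower had a median of 0.22, with 8 rises (8.42%) and 0 falls, and 0.31 by the genomic DNA route.

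Among 29 ORFs of sulfate and methionine metabolism 2 fell, the methionine synthase gene MET6 (-0.59) and the PAPS reductase gene MET16 (-0.57), and 0 rose, with mRNA higher at 22 of 29. That is 6.90% lower, against 0.941% of all ORF probes. Among 24 promoters of that list 2 fell (8.33%, against 0.269% of all promoter probes) and 0 rose, those of MET13 (-0.60) and the shared one of MET28 and YAP5 (-0.55). Among 59 ORFs of amino acid biosynthesis 4 fell (6.78%) and 0 rose, with the largest falls at LEU9 (-0.93) and LYS2 (-0.65). NTH2, a neutral trehalase, rose by 1.12 in its ORF. Of 20 trehalose and glycogen ORFs 1 rose and 0 fell, with a median of -0.09 and 6 means above 0. QCR2, a subunit of respiratory complex III, had -0.83, -0.88 and -0.59. Of 40 ORFs of oxidative phosphorylation 1 rose and 1 fell, with a median of 0.11 and 30 means above 0. LSC1, of the mitochondrial citric acid cycle, had a mean of -0.74. Of 20 ORFs of that cycle 0 rose and 1 fell, with a median of -0.09. Among all ORF probes 2.07% rose and 0.941% fell. Hexose transporters (19 ORFs), the proteasome (33 ORFs), autophagy and vacuole genes (27 ORFs), and silencing and chromatin genes (47 ORFs) had 0 calls in ORFs and promoters, which in lists of this size is near the shares of all ORF and promoter probes.

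The largest falls were in coding regions. CRC1, the mitochondrial carnitine carrier, had -1.47, -1.87 and -0.95, a mean of -1.43 ± 0.46 (SD, n = 3) and an adjusted p of 0.030. YPR196W, a maltose regulator homologue, had a mean of -1.37, SSS1, a subunit of the endoplasmic reticulum translocon, had -1.19, CPT1, a cholinephosphotransferase, had -1.11, and ELG1, a replication factor, had -1.11, -1.07 and -0.97. HEM15, the ferrochelatase, had -1.28, -1.21 and -0.51. The largest intergenic falls were smaller, with -0.87 between SSH4 and SRP21 and -0.82 before CDC50. CRC1 and YPR196W were also called below heat shock, by differences of -1.56 (adjusted p = 0.010) and -1.47 (adjusted p = 0.013).

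The falls and the rises had unlike values by the genomic DNA route. The 303 rises had a median of 0.58 on that route, with 299 above 0, where 51.3% of all probes were above 0. The 83 falls had a median of 0.15, with 28 below 0 and 55 above. The share of all probes is an unlike background for both groups. Among the 1303 probes lowest in log phase H4 level against genomic DNA, 1178 were above 0 by that route. The route subtracts the same log phase arrays that ranked these probes, so this share is partly built in. Those probes held 139 of the rises and 48 of the falls. All 8 falls of at least 2-fold were above 0 by that route, and CRC1 had 0.15 and ELG1 also 0.15. Of 59 ORF falls 16 were below 0 and of 15 intergenic falls 9 were. The test of the difference between the routes called 0 probes by limma (0%), with 695 at an unadjusted p below 0.05. At the 83 falls acetylated H4 was called lower at 65 (12.1% of all probes) and higher at 0.

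**Figure D5:**
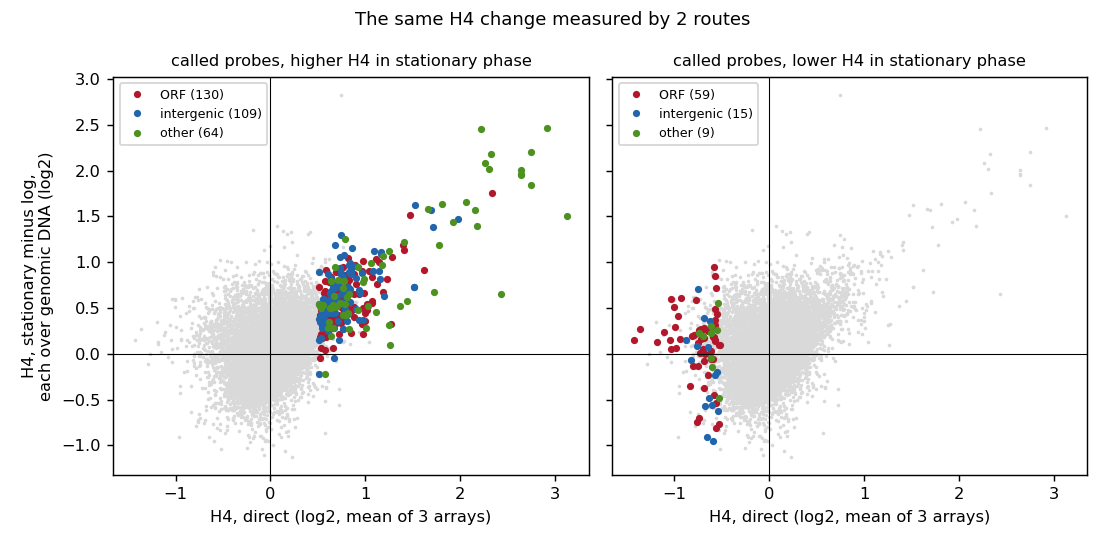
H4 change in stationary over log phase measured directly (horizontal axis, log2, mean of 3 arrays) and through genomic DNA (vertical axis, log2 difference of 2 group means). Coloured points are the called rises (left) and called falls (right) by probe class, grey points all probes; 299 of 303 rises lie above 0 on the vertical axis, and 55 of 83 falls do too.

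The called probes, in both directions, often had a low log phase H4 level. Ranked by the H4 level of log phase cells against genomic DNA and divided into 10 equal groups, the lowest group held 139 of the 303 rises (45.9%) and 48 of the 83 falls (57.8%), and the highest held 0 rises and 2 falls. The lowest group had a median direct change of -0.14, against 0.37 by the genomic DNA route. Across probes the direct change had a Spearman rho of 0.03 with the log phase level, and the genomic DNA route had -0.58. Both values of that route, 0.37 and -0.58, share the log phase arrays with the level they are set against. Because the route subtracts those arrays, a higher value where the level is low is partly built in. The deposited ratios hold no signal intensities, so the part of signal in the calls was not tested.

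Among all probes 2.33% rose and 0.637% fell, and the sets of other features, all small, can be read against those shares. Of 16 probes beside centromeres 6 rose (37.5%) and 1 fell, with a median of 0.45; iCEN6 had a mean of 1.26, iCEN10 had 1.11 and iCEN5 had 1.01, and iCEN7 had -0.61. The 16 probes of the centromeres themselves, where a variant nucleosome sits, had a median of -0.23 and 1 call (CEN6, 0.61). Of 42 small RNA gene probes 3 rose (7.14%), SNR13 (2.45, 1.20 and 1.53), snR3 (mean 1.44) and SNR34 (0.98). Of 42 tRNA gene probes 0 passed, a count near the share of all probes, with a median of -0.18. Of 250 probes next to a tRNA gene 7 rose (2.8%) and 2 fell (0.8%), near the shares of all probes, with a median of 0.09. The largest rise among them was at itE(UUC)C, with 2.10, 1.72 and 1.50.

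Probes within 2 genes of a chromosome end, 130 in all, had a median of 0.15 with 8 rises (6.15%) and 1 fall, and probes 3 to 5 genes from an end had a median of 0.00. The right arm of chromosome XVI, singled out after its values were seen, had a median of -0.15 over 379 probes, with 0 rises and 12 falls (3.17%), but 0.04 by the genomic DNA route. The 7 YRF1 helicase ORFs of the chromosome ends had a median of 0.37 with 0 calls, and their near-identical copies may share signal.

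The mitochondrial genome carries no histones, and its 69 probes give a reading where no H4 is bound. They had a median of -0.17, but 4 rose and 2 fell. IntQ0185A had 3.09, 3.63 and 2.66, the highest mean of any probe on the arrays (3.13). The probe 15S_rRNA1 had 2.35, 2.53 and 2.43 directly and a mean of 0.65 by the genomic DNA route. The 21S_rRNA1 and 21S_rRNA2 probes had means of -0.61 and -0.74. A rise of over 2 on the log2 scale was thus also measured at DNA without nucleosomes, and what produced it was not tested.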

How the data were processed

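The values are log2 ratios per probe as deposited by the authors, with the dyes taken from the labels; no label or header used here names the scanner, the background correction or the normalization. Of the columns in the deposited table, 149 were not used. Each array was centred on its own median, and probes were tested with limma 3.58.1 in R 4.3.3 (lmFit and eBayes, Benjamini-Hochberg adjustment over all probes tested, threshold 0.05). The direct arrays were tested against 0. Differences from heat shock and between routes were contrasts of group means. The tests were tried on simulated data first. Depth does not apply to arrays, and their number, 3 per group, limits the precision. Of 6269 ORF probes, 5777 matched R64 gene names from RefSeq. The 4094 promoter probes serve 5353 genes, and 1259 of them serve 2 genes. No genome sequence was used, so positions are ranks in gene order. Same-numbered sets did not deviate together (r between -0.24 and 0.17), so the numbers were not treated as pairs.

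Named genes are the 10 largest called rises and falls with 1 direction on all 3 arrays, for ORF and for intergenic probes, every rDNA probe, up to 4 members with the largest change of each list, the 10 genes with the largest mRNA rise and fall, the 5 largest called differences from heat shock in each direction, all histone genes and a fixed set of known genes. Other named features were chosen after their values were seen. The members and the gene lists were chosen with earlier results of these data known. Alternatives covered the centring, scaling, robust fitting, probe classes left out, the replicate block and each array left out.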

Additional observations from a re-analysis of the deposited data

How the results depend on the processing

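None of the single probes that were followed reversed direction under any alternative. The named largest rises and falls were chosen for 1 direction on every direct array, and the rDNA probes were above 0 on each. Their direct means could not reverse with 1 array left out, so the absence of reversals there says nothing about stability. Set medians were only judged as within their limits or moved, and the chaperone promoter median crossed 0 with 1 array left out. Of the comparison-level results, 140 alternative values stayed within the stated limits and 25 moved. Of the values for single probes and for the remaining sets, 596 kept their call or stayed within the limits. Another 111 values, all of single probes, no longer passed, and 8 set medians moved. Leaving out 1 array at a time gave 0 to 331 calls for H4 directly, 113 to 849 for stationary phase minus heat shock, 1284 to 2158 for mRNA and 678 to 1340 for acetylated H4. Under the replicate block, stationary phase minus heat shock had 491 calls in place of 757, and the genomic DNA route and the difference between routes had 0. Without centring 374 probes passed (268 higher and 106 lower), with centring on ORF probes 436 (345 and 91), with scaled arrays 352, with a robust fit 383, and without rDNA and mitochondrial probes 355 of 12941. The chromosome XII median was 0.145 without centring, 0.182 with ORF centring and 0.160 to 0.172 with 1 array left out. With 1 array left out, the chaperone promoter median was -0.019 to 0.078, and that of promoters with mRNA at least 4-fold lower was 0.165 to 0.267. The 1303 probes lowest in log phase H4 level had a median of -0.164 without centring, -0.104 with the median over arrays and -0.154 to -0.078 with 1 array left out. The group of probes highest in that level had -0.059 without centring, -0.022 with ORF centring and -0.037 to -0.027 with 1 array left out. A trend on average level was not run, because the ratios carry no average level, and promoter motifs were not searched. The cause of each shift was not tested.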
